A study of Homo sapiens with 18 samples.

Results

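This section describes 10 human genes of the unfolded protein response and of ER-associated degradation (ERAD), read as 11 transcript entries among 26679 entries per ribosome footprint table and 98334 per mRNA table. The entries were taken by Ensembl transcript ID and checked by length, not by any measured level. The list itself was drawn up with earlier results of these data known, so it was not blind to them. Each length in the tables equalled the protein length less 20 codons in the footprint tables and less 19 in the mRNA tables, so no entry was dropped for its length. All 11 entries were in the mRNA tables, and 9 of them in the footprint tables. The longer of 2 XBP1 entries (ENST00000344347) and that of SYVN1 (ENST00000377190) were found in the mRNA tables only, so no footprint value is given for them here. The other entries were ERN1 (ENST00000433197), ATF6 (ENST00000367942), EIF2AK3 (ENST00000303236), the shorter XBP1 entry (ENST00000216037), SEL1L (ENST00000336735), DERL1 (ENST00000259512), HERPUD1 (ENST00000439977), EDEM1 (ENST00000256497) and VCP (ENST00000358901). Other isoforms of these genes were not examined.

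The unfolded protein response starts from sensors that span the ER membrane. ERN1 (IRE1 alpha) is a kinase and RNase that removes a short intron from XBP1 mRNA, which shifts the reading frame so that the longer, active transcription factor is made in place of the shorter protein. ATF6 is a transcription factor held in the ER membrane until it is cut in the Golgi, and EIF2AK3 (PERK) is a kinase that phosphorylates the initiation factor eIF2 alpha and so lowers translation. In ERAD, misfolded proteins are taken out of the ER and degraded in the cytosol. SEL1L and the ubiquitin ligase SYVN1 (HRD1) form the core of one ERAD complex, HERPUD1 and DERL1 are membrane proteins that work with it, EDEM1 is a lectin-like protein that handles misfolded glycoproteins, and VCP (p97) is the soluble cytosolic ATPase that extracts the substrates. The short XBP1 protein is known to bring its own mRNA to the ER membrane through a hydrophobic stretch of the nascent chain.

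The study compared HEK293 cells, a human embryonic kidney line, with 2 lines made from it by Cas9 and described as clonal: UFM1-KO, made with the guide sgUFM1, and UFSP2-KO, made with sgUFSP2. UFM1 is a ubiquitin-like modifier of the ribosomal protein RPL26 and UFSP2 is the protease that removes it, and the series is about that modification. The unedited cells (WT) received no treatment, and all lines were grown in DMEM with serum. Each knockout is 1 clone, so a knockout and other differences between clones cannot be told apart. Ribosome footprints came from a cytosolic fraction, which digitonin released, and from a membrane fraction, which Triton released from what remained. Whole-cell mRNA was sequenced beside them. Each of the 9 groups (3 lines in membrane, cytosol and mRNA) had 2 libraries, a and b. The labels do not tie the libraries to separate cultures, so the p-values below measure only the spread between these libraries, which may be technical. Totals ranged from 1393032 to 11388755 counts in the 12 footprint libraries and from 37451244 to 68675420 in the 6 mRNA libraries. No table used here pairs transcript IDs with symbols beyond these members, so the wider pathway, HEK293 markers and the edited genes themselves were not looked up.

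Levels are given as CPM, counts scaled to the normalised library size (edgeR with TMM factors), and changes as log2 of the ratio. The standard error (SE) given is approximate, the absolute log2 change over the square root of the F statistic of edgeR's test. A feature was called where edgeR's quasi-likelihood test gave a Benjamini-Hochberg adjusted p under 0.05 over every feature tested. All 9 footprint entries and all 11 mRNA entries passed the filter on low counts.

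In WT cells the transcripts of every sensor and ERAD gene measured had higher footprint levels at the membrane than in the cytosol, by 5.95-fold for HERPUD1 and 138-fold for DERL1 in the edgeR fit. VCP stood lowest, at 1.44-fold in the same fit. CPM is scaled within each library, so these ratios are relative to the other features of the fractions. They do not give the share of a gene's translation that takes place at the membrane. By edgeR, 9 of 9 entries were called higher at the membrane in WT, against 25.3% of all features. In UFM1-KO 8 of 9 were called, against 23%, and in UFSP2-KO 8 of 9, against 24.8%. VCP was the entry not called in either knockout. For the 9 entries the median log2 enrichment came to 5.34 (WT), 4.06 (UFM1-KO) and 5.79 (UFSP2-KO), where that of all features was -0.0197, 0.0189 and 0.0122. With ERN1, which had 0 cytosol counts in WT and UFSP2-KO, set at its lower bound, the medians were 4.36 in WT and 3.75 in UFSP2-KO.

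Among the sensors, ATF6 had 127 and 120 CPM in WT membrane libraries a and b and 6 and 1.61 CPM in the cytosol. Its log2 enrichment was 5.58 (SE 0.35, edgeR adjusted p = 2.06e-13) in WT, 4.06 (SE 0.31) in UFM1-KO and 5.79 (SE 0.36) in UFSP2-KO. The sensor kinases were rarer. ERN1 had 11 and 11.7 CPM at the WT membrane and 0 counts in both WT cytosol libraries, which makes it at least 20.6-fold higher at the membrane if 3 counts over the group are taken as the limit. In UFSP2-KO, where the cytosol again held 0 counts, the bound was at least 13.4-fold, and in UFM1-KO, with 1 cytosol count, the ratio was 41.6 (95% counting interval 7.28 to 1662). EIF2AK3 had 20 and 14.4 CPM at the WT membrane and 0 and 2 counts in the cytosol, a ratio of 42.3 (11.5 to 352). These intervals are exact and cover counting error only.

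Of the ERAD genes, DERL1, a multi-pass membrane protein, had 166 and 214 CPM at the WT membrane and 3 and 0.921 CPM in the cytosol. Its log2 enrichment was 7.11 (SE 0.38, edgeR adjusted p = 1.07e-14) in WT, 6.22 (SE 0.36) in UFM1-KO and 6.2 (SE 0.34) in UFSP2-KO. SEL1L had 94 and 117 CPM at the WT membrane and 1 count in each WT cytosol library, a ratio of 297 (95% counting interval 82 to 2455). Without WT cytosol library b the fitted log2 enrichment in WT was lower, at 5.98 for DERL1, 6.67 for SEL1L (7.98 with all libraries), 4.36 for ATF6 and 2.44 for EDEM1, and each stayed called by edgeR. Without WT cytosol library a it was higher, at 6.22 for ATF6, 8.61 for SEL1L and 4.19 for EDEM1. The 3 entries with the lowest enrichment after VCP were HERPUD1, XBP1 and EDEM1. HERPUD1 had 69.1 and 64.3 CPM at the WT membrane against 12 and 10.8 CPM in the cytosol, a log2 enrichment of 2.57 (SE 0.25, edgeR adjusted p = 1.04e-09). EDEM1 had 28.2 and 17.2 CPM against 4 and 1.15 CPM, a log2 enrichment of 3.61 (SE 0.59, edgeR adjusted p = 1.02e-05). Its enrichment in UFSP2-KO was 3.04, and without cytosol library b of that line 1.5 and no longer called (edgeR adjusted p = 0.08). Without cytosol library a it was 4.56, and without membrane library b 2.37.

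VCP was the most abundant entry in each fraction. It had 833 and 960 CPM at the WT membrane and 501 and 735 CPM in the WT cytosol, so each membrane library lay above both cytosol libraries. The log2 difference was 0.53 (SE 0.21, edgeR adjusted p = 0.0475) in WT, 0.34 (SE 0.21, edgeR adjusted p = 0.261) in UFM1-KO and 0.42 (SE 0.21, edgeR adjusted p = 0.125) in UFSP2-KO. The WT call ended with library size as the only scaling (log2 0.38), with no filter on low counts (0.53) and without WT membrane library a (0.63) or b (0.43) or WT cytosol library a (0.28).

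**Figure D1:**
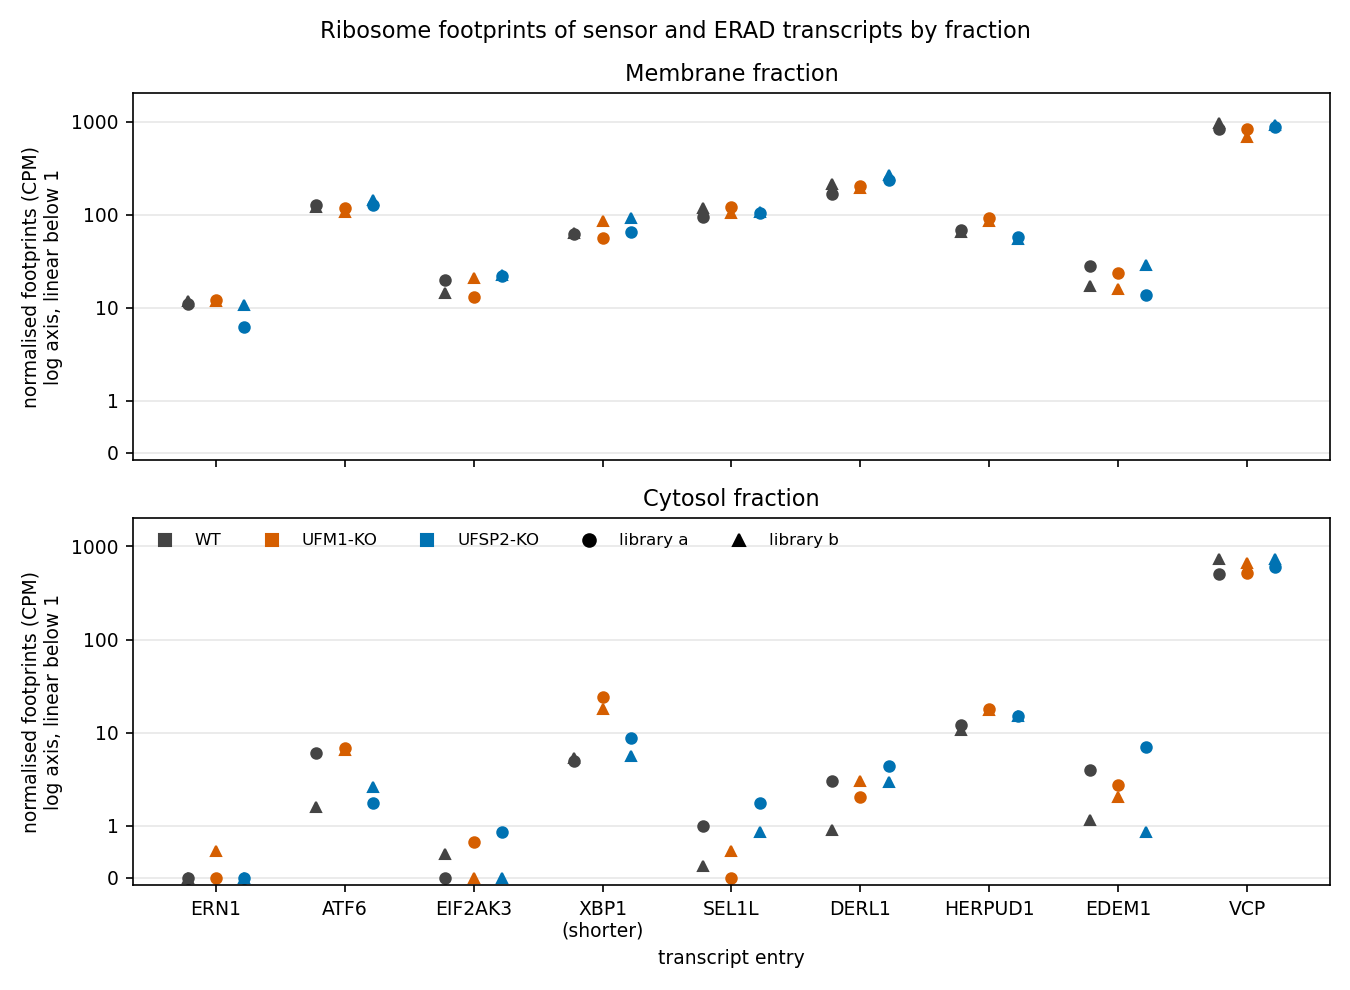
Normalised footprints (CPM, log axis that is linear below 1) of the 9 entries in the membrane fraction (top) and the cytosol (bottom), with 1 point per library, colour for the line and shape for library a or b. Every entry sits higher in the upper panel than in the lower one in each line, VCP by the least, and in the lower panel the XBP1 libraries of UFM1-KO lie at 24 and 18.2 CPM, above the other 4 libraries.

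XBP1 was the only entry whose cytosolic footprints were called as changed in a knockout. They stood at 5 and 5.3 CPM in WT (5 and 23 counts), 24 and 18.2 CPM in UFM1-KO (35 and 36 counts) and 8.87 and 5.58 CPM in UFSP2-KO (10 and 19 counts). Both UFM1-KO libraries lay above the libraries of WT and UFSP2-KO, and those of UFSP2-KO lay just above WT. How many other features separate likewise was not counted. The rise in UFM1-KO was 3.96-fold (log2 1.98, SE 0.39, edgeR adjusted p = 0.0159), 1 call among 9 entries where 0.85% of all features were called. In UFSP2-KO the log2 change was 0.32 (SE 0.46, edgeR adjusted p = 0.76), and the difference between the knockouts was not tested in the cytosol. The UFM1-KO call was lost in a model of only the groups compared (log2 2.04, edgeR adjusted p = 0.0809), without UFM1-KO cytosol library a (1.78, edgeR adjusted p = 0.0917) and without WT cytosol library b (2.05, edgeR adjusted p = 0.222). DESeq2 also called it.

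At the membrane the WT libraries of XBP1 stood at 61.7 and 63.2 CPM, beside 56.2 and 85.8 CPM in UFM1-KO and 64.8 and 91.9 CPM in UFSP2-KO. The UFM1-KO libraries enclosed those of WT, and the log2 change was 0.15 (SE 0.23, edgeR adjusted p = 0.888). The membrane-to-cytosol log2 ratio of XBP1 was 3.57 (SE 0.33) in WT, 1.74 (SE 0.28) in UFM1-KO and 3.58 (SE 0.33) in UFSP2-KO. From summed counts the ratio was 12-fold (95% counting interval 8.21 to 18.2), 3.09-fold (2.4 to 4.03) and 12.6-fold (8.63 to 19.1). The test of the change of the ratio between UFM1-KO and WT gave log2 -1.83 (SE 0.45, unadjusted p = 4.22e-04) in edgeR's model, but its adjusted p was 0.389, so the shift did not pass the threshold over all features. This entry counts reads almost wholly from the part that the spliced and unspliced mRNA share, so which protein the footprints belonged to cannot be told apart.

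**Figure D2:**
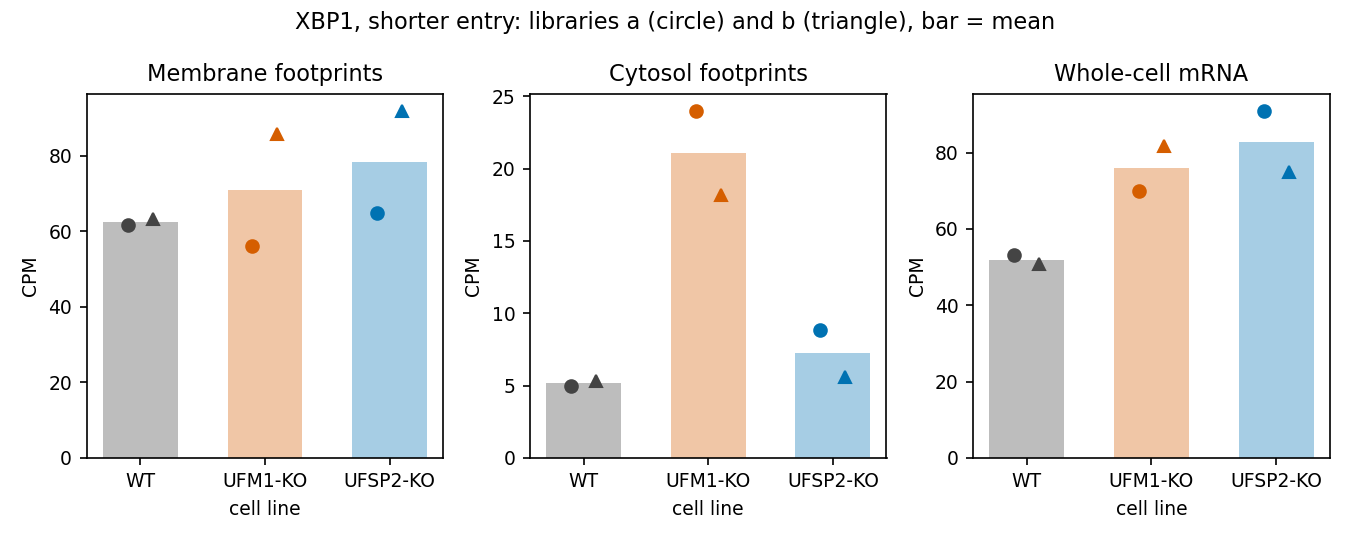
CPM of the shorter XBP1 entry in membrane footprints, cytosol footprints and whole-cell mRNA by line, with bars for the mean of 2 libraries and points for library a (circle) and b (triangle); each panel has its own axis from 0. Cytosol footprints are far higher in UFM1-KO than in the other lines, while membrane footprints of WT and UFM1-KO overlap.

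At an unadjusted p under 0.05 edgeR gave 3 entries in UFM1-KO cytosol, XBP1, ATF6 and HERPUD1, beside 1256 of all 11065 features. Summed over ERN1, ATF6, EIF2AK3, SEL1L, DERL1 and EDEM1, cytosol footprints were 12.3 and 12.6 CPM in UFM1-KO, within the 14 and 4.37 CPM of the WT libraries, and 16 and 7.34 CPM in UFSP2-KO. This sum leaves out HERPUD1, also a membrane protein, which alone exceeded it in UFM1-KO and lay above WT there. ATF6 had 6.86 and 6.56 CPM in UFM1-KO cytosol, just above its 6 and 1.61 CPM in WT (log2 1.38, SE 0.53, edgeR adjusted p = 0.287), and without WT cytosol library b its log2 change was 0.16. HERPUD1 had 17.8 and 17.6 CPM in UFM1-KO and 15.1 and 15 CPM in UFSP2-KO against 12 and 10.8 CPM in WT. Its libraries did not overlap between lines, and how many other features separate likewise was not counted. Neither of its log2 changes, 0.67 (SE 0.3, edgeR adjusted p = 0.382) and 0.43 (SE 0.3, edgeR adjusted p = 0.457), was called. VCP, at 522 and 672 CPM in UFM1-KO cytosol and 600 and 740 CPM in UFSP2-KO, overlapped WT.

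In UFSP2-KO cytosol edgeR called 0 of 9 entries, against 3.99% of all features, with 0 at an unadjusted p under 0.05 and 0 by DESeq2. A changed ratio of membrane over cytosol was called for 0 of 9 entries in either knockout, where 0.00904% of all features, that is 1 feature in each comparison, were called. At an unadjusted p under 0.05 there were 2 entries in UFM1-KO, XBP1 and ATF6 (log2 -1.52, SE 0.57, edgeR adjusted p = 0.888, and -0.29 without WT cytosol library b), and 0 in UFSP2-KO, and DESeq2 called 0 in both. The ratios of ERN1, EIF2AK3 and SEL1L rested on 0 to 5 cytosol counts per line, and no change of their ratio was detectable at this depth.

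Footprints at the membrane were compared between each knockout line and WT. EdgeR called 0 of 9 entries in UFM1-KO against WT, where 1.26% of all features were called, and 0 of 9 in UFSP2-KO, where 11.1% were. At an unadjusted p under 0.05 in edgeR there were 1 and 0 entries, beside 1240 and 2828 of all 11065 features. DESeq2 called 0 of the entries in both. The log2 changes ran from -0.24 to 0.42 in UFM1-KO with a median of 0.055, against 0.048 over all features. In UFSP2-KO they ran from -0.39 to 0.42 with a median of 5.74e-04, against 0.0135 over all features. ATF6 stood at 117 and 108 CPM in UFM1-KO and 126 and 145 CPM in UFSP2-KO, near its WT levels of 127 and 120 CPM. SEL1L stood at 121 and 104 CPM and 105 and 107 CPM, against 94 and 117 CPM in WT. Both genes stayed uncalled in either knockout.

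DERL1 membrane footprints were 204 and 192 CPM in UFM1-KO, between the WT libraries at 166 and 214 CPM, and 236 and 264 CPM in UFSP2-KO, above both (log2 0.39, SE 0.21, edgeR adjusted p = 0.243). ERN1 stood at 12.2 and 11.8 CPM in UFM1-KO and 6.25 and 10.7 CPM in UFSP2-KO, the latter below the WT libraries at 11 and 11.7 CPM (log2 -0.39, SE 0.39, edgeR adjusted p = 0.571). EDEM1 was 23.8 and 16.1 CPM in UFM1-KO and 13.6 and 28.6 CPM in UFSP2-KO, and its WT libraries at 28.2 and 17.2 CPM lay within that spread. VCP, the soluble ATPase, stood at 833 and 682 CPM in UFM1-KO and 870 and 924 CPM in UFSP2-KO, where WT had 833 and 960 CPM. Over all features, it was not counted how many have UFSP2-KO libraries clear of WT, as DERL1 and ERN1 do.

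Between the knockouts 1 entry was called at the membrane, HERPUD1, whose protein sits in the ER membrane and joins the SEL1L-SYVN1 complex. Its membrane footprints were 91.4 and 85.8 CPM in UFM1-KO, 69.1 and 64.3 CPM in WT and 57.9 and 54.9 CPM in UFSP2-KO. The 3 lines did not overlap, with UFM1-KO highest and UFSP2-KO lowest, and how many other features separate likewise was not counted. UFM1-KO was 1.58-fold above UFSP2-KO (log2 0.66, SE 0.2, edgeR adjusted p = 0.0206), the 1 call of 9 entries in a comparison in which 21.4% of all features were called. The entries were thus called no more often than features at large. Against WT the log2 change was 0.42 (SE 0.19, edgeR adjusted p = 0.409) in UFM1-KO and -0.24 (SE 0.2, edgeR adjusted p = 0.491) in UFSP2-KO. The call between the knockouts was lost in DESeq2 (log2 0.6, adjusted p = 0.161) and without any 1 of the 4 libraries compared (0.61 to 0.69, edgeR adjusted p = 0.0635 to 0.153).

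Messenger RNA of both XBP1 entries was higher in the libraries of the knockouts than in those of WT, but no entry was called against WT in the edgeR model. The shorter entry stood at 53.2 and 50.8 CPM in WT, 70 and 81.8 CPM in UFM1-KO and 90.9 and 74.9 CPM in UFSP2-KO. The longer entry stood at 97.9 and 81.8 CPM in WT, 136 and 147 CPM in UFM1-KO and 158 and 123 CPM in UFSP2-KO. In either entry each knockout library lay above both WT libraries, and how many other features separate likewise was not counted. The log2 changes were 0.55 (SE 0.22, edgeR adjusted p = 0.22) and 0.65 (SE 0.21, edgeR adjusted p = 0.127) in UFM1-KO, and 0.67 (SE 0.22, edgeR adjusted p = 0.0707) and 0.65 (SE 0.21, edgeR adjusted p = 0.0749) in UFSP2-KO. The 2 entries share most of their reads and the 2 comparisons share the WT libraries, so these values are not independent of each other.

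Of the 11 entries, edgeR called 0 in UFM1-KO mRNA, where 1.97% of all features were called, and 0 in UFSP2-KO mRNA, where 7.19% were. At an unadjusted p under 0.05 in edgeR there were 2 entries in UFM1-KO, both of XBP1, and 4 in UFSP2-KO. Of all 13891 features, 2253 and 3430 had such a p. DESeq2 called 0 in UFM1-KO and 3 in UFSP2-KO, both XBP1 entries (log2 0.7, adjusted p = 0.0258, and 0.67, adjusted p = 0.035) and EIF2AK3 (log2 0.73, adjusted p = 0.0425). The XBP1 entries share most of their reads, and the share of all features called by DESeq2 is not given here. Over the 11 entries the median log2 change came to 0.21 for UFM1-KO and 0.13 for UFSP2-KO, against -0.00614 and -0.00887 over all features.

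Of the sensor kinases, EIF2AK3 was called between the knockouts in mRNA, and ERN1 did not pass the threshold. EIF2AK3 mRNA was 36.3 and 27.3 CPM in WT, 31.1 and 27.9 CPM in UFM1-KO and 48.5 and 54.9 CPM in UFSP2-KO, where both libraries lay above the other 4. UFSP2-KO was 1.75-fold above UFM1-KO (log2 of UFM1-KO over UFSP2-KO -0.81, SE 0.24, edgeR adjusted p = 0.0294), the 1 call of 11 entries where 16% of all features were called. Here too the share of entries called was not above that of all features. The change against WT was 0.7 in UFSP2-KO (SE 0.24, edgeR adjusted p = 0.083). The call between the knockouts was lost with library size as the only scaling (log2 -0.73, edgeR adjusted p = 0.0524), with the library letter as a replicate block (-0.82, edgeR adjusted p = 0.0517) and without UFM1-KO library a (-0.89), UFM1-KO library b (-0.73) or UFSP2-KO library b (-0.72). EIF2AK3 membrane footprints were 22.2 and 22.7 CPM in UFSP2-KO against 20 and 14.4 CPM in WT and 13.1 and 20.9 CPM in UFM1-KO. ERN1 mRNA was lowest in UFSP2-KO, at 6.21 and 4.83 CPM, beside 9.44 and 10.3 CPM for UFM1-KO and 6.86 and 14.1 CPM for WT. Both UFSP2-KO libraries lay below the other 4. For neither kinase was it counted how many other features separate likewise. The ERN1 log2 change in UFSP2-KO was -0.92 (SE 0.37, edgeR adjusted p = 0.138), or -0.31 without WT library b. Between the knockouts it was 0.83 (SE 0.37, edgeR adjusted p = 0.135).

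None of the remaining transcripts was called in mRNA in any comparison of lines. ATF6 mRNA was 82 and 65.4 CPM in WT, 94.2 and 85.7 CPM in UFM1-KO (log2 0.29, SE 0.21, edgeR adjusted p = 0.53) and 75.3 and 85.7 CPM in UFSP2-KO. HERPUD1 mRNA was 38.6 and 37.4 CPM in WT, 50.1 and 47.9 CPM in UFM1-KO (log2 0.37, SE 0.24, edgeR adjusted p = 0.461) and 48.6 and 33.2 CPM in UFSP2-KO. SYVN1, the ubiquitin ligase, was 12.9 and 18.8 CPM in WT, 17.4 and 14.3 CPM in UFM1-KO and 20.7 and 17.6 CPM in UFSP2-KO, so the lines overlapped. Both UFM1-KO libraries lay above both WT libraries for ATF6 and HERPUD1, and neither change was called. DERL1 mRNA was 39.4 and 34.2 CPM in WT, 47.3 and 33.7 CPM in UFM1-KO and 43.9 and 54.1 CPM in UFSP2-KO, whose log2 change of 0.41 (SE 0.24, edgeR adjusted p = 0.311) was not called. EDEM1 was 32 and 49.1 CPM in WT, 49.8 and 49.3 CPM in UFM1-KO and 35.7 and 37.2 CPM in UFSP2-KO. SEL1L was 58.6 and 58.5 CPM in WT, 66.7 and 68.5 CPM in UFM1-KO and 55.9 and 57.3 CPM in UFSP2-KO, log2 changes of 0.21 and -0.05. The libraries of SEL1L agreed closely within each line, and UFM1-KO lay above the other lines without being called. How many other features separate as SEL1L, ATF6 and HERPUD1 do was not counted. VCP had 548 and 479 CPM in WT, 439 and 505 CPM in UFM1-KO and 587 and 469 CPM in UFSP2-KO, and its lines overlapped.

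**Figure D3:**
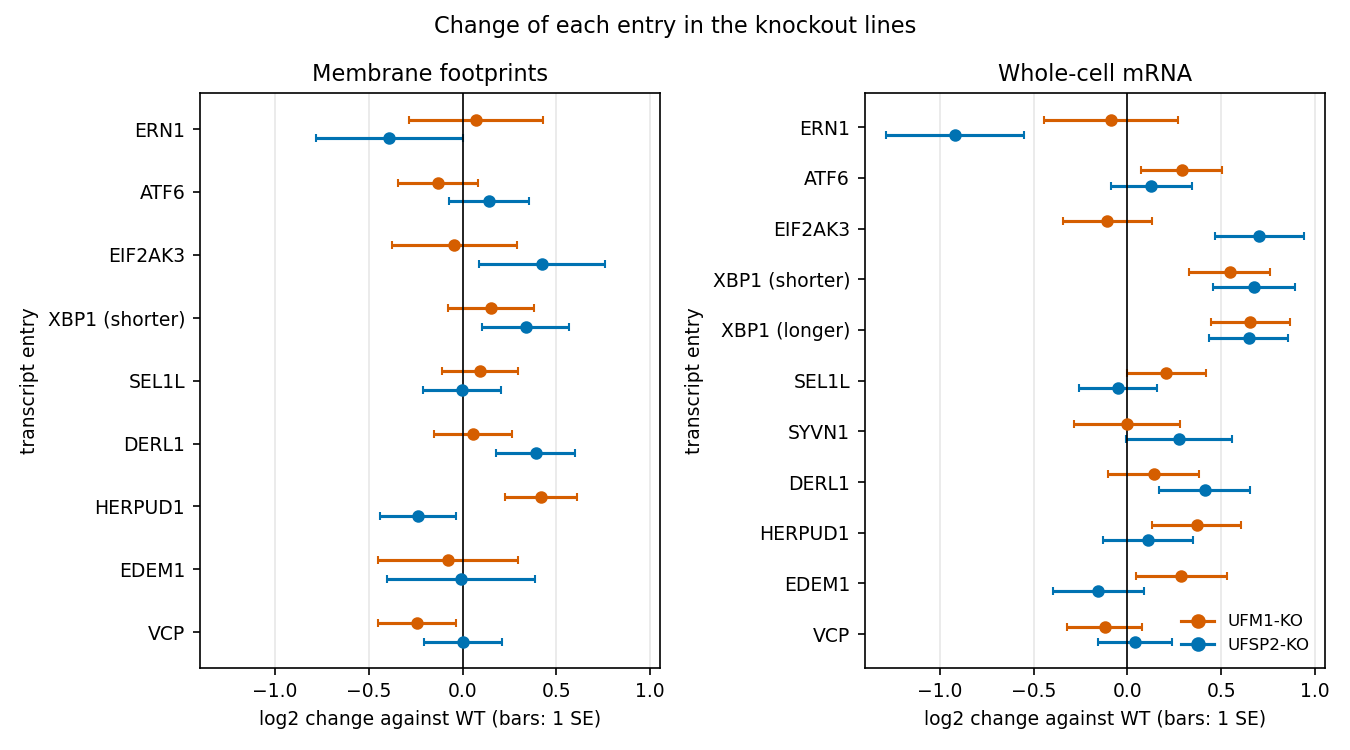
Log2 change against WT of each entry in UFM1-KO and UFSP2-KO, in membrane footprints (left, 9 entries) and whole-cell mRNA (right, 11 entries). Bars are 1 approximate SE, from the F statistic of the edgeR test. None of these changes was called by edgeR; both XBP1 entries lie at 0.55 to 0.67 in mRNA of either knockout, and EIF2AK3 and ERN1 lie on opposite sides of 0 in UFSP2-KO.

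XBP1 and HERPUD1 are textbook targets of the unfolded protein response, and the bases before their starts are shown because each holds an ER stress element. The windows are the 250 bases before the start, from RefSeq's table for GRCh38.p14, for the 9 member genes it lists. On both strands 3 motifs were searched. The first and second were the ER stress elements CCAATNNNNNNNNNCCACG and ATTGGNCCACG, which ATF6 and XBP1 proteins are known to bind. The third was the core TGACGTGG of the unfolded protein response element. The first was found before XBP1 (positions -52 to -34 from the start) and in 0.074% of 35116 start sites in the table, the second before HERPUD1 (-117 to -107) and in 0.0513%, and the third before VCP (-189 to -182) and in 0.612%. Each motif was thus found before 1 of the 9 genes searched. None was found before ERN1, ATF6, EIF2AK3, SEL1L, SYVN1 or EDEM1, and DERL1 was the gene not listed. A match is a description of these letters only. Each sequence reads 5′ to 3′ on the gene's strand with the match in capitals. The XBP1 window is chr22:28800570-28800819 on the minus strand (1 of 2 starts listed, the other without a match) and the HERPUD1 window is chr16:56931892-56932141 on the plus strand.
XBP1: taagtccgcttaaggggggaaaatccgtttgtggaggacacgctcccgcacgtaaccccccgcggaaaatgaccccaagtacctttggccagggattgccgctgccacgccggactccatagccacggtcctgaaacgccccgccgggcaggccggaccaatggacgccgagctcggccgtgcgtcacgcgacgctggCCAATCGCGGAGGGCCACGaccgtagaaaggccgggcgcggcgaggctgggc
HERPUD1: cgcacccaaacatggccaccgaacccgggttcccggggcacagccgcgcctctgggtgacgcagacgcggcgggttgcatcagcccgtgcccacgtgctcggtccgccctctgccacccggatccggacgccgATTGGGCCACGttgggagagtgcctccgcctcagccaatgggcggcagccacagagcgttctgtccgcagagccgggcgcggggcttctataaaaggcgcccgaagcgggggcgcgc

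The longer XBP1 entry counts 115 codons beyond the shorter, or 32.2% of its length, and both splice forms of the mRNA contain that stretch. Its reads made up 45.6% and 38% of the longer entry's mRNA counts in WT libraries a and b, 48.4% and 44.4% for UFM1-KO, and 42.3% and 39.2% for UFSP2-KO. The exact 95% binomial interval of WT library a, for example, was 43.4% to 47.9%. The WT mean was 41.8% ± 5.4 (SD, n = 2), that of UFM1-KO 46.4% ± 2.8 and that of UFSP2-KO 40.8% ± 2.2. WT libraries a and b lay farther apart than any pair of means, and the WT range overlapped both knockouts. The UFM1-KO libraries lay above those of UFSP2-KO, a difference that was not tested. These counts do not measure splicing.

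Levels of different genes were compared per length, as CPM per 1000 codons. In WT mRNA the order was VCP (652), the longer and the shorter XBP1 entry (252 and 215), DERL1 (159), ATF6 (113), HERPUD1 (102), SEL1L (75.6), EDEM1 (63.6), EIF2AK3 (29), SYVN1 (26.5) and ERN1 (10.9). The ranges of the WT libraries overlapped for ATF6 with HERPUD1, SEL1L with EDEM1 and EIF2AK3 with SYVN1. In WT membrane footprints the order was VCP (1141), DERL1 (823), XBP1 (259), ATF6 (190), HERPUD1 (180), SEL1L (136), EDEM1 (35.6), EIF2AK3 (15.7) and ERN1 (11.9), and the libraries of ATF6 and HERPUD1 overlapped.

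The footprint level per codon over the mRNA level per codon sets the membrane signal of each gene against its transcript level, on a relative scale. In WT it was 5.19 for DERL1, 1.8 for SEL1L, 1.76 for HERPUD1, 1.75 for VCP, 1.68 for ATF6, 1.21 for XBP1, 1.09 for ERN1, 0.56 for EDEM1 and 0.541 for EIF2AK3. The median of the 9 entries was 1.68, and that of 11147 features averaging 1 CPM or more in each assay was 0.602 (quartiles 0.343 and 1.07). DERL1 was highest in each line, at 4.91 in UFM1-KO and 5.12 in UFSP2-KO. EIF2AK3 (0.578 and 0.434) and EDEM1 (0.404 and 0.581) were the lowest of the 9 in both knockouts. In the WT cytosol VCP stood at 1.21 and HERPUD1 at 0.301, while the other 7 entries lay between 0 and 0.0994, where the median of all features was 0.459. XBP1 had 0.0994 in WT cytosol, 0.279 in UFM1-KO and 0.0875 in UFSP2-KO.

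**Figure D4:**
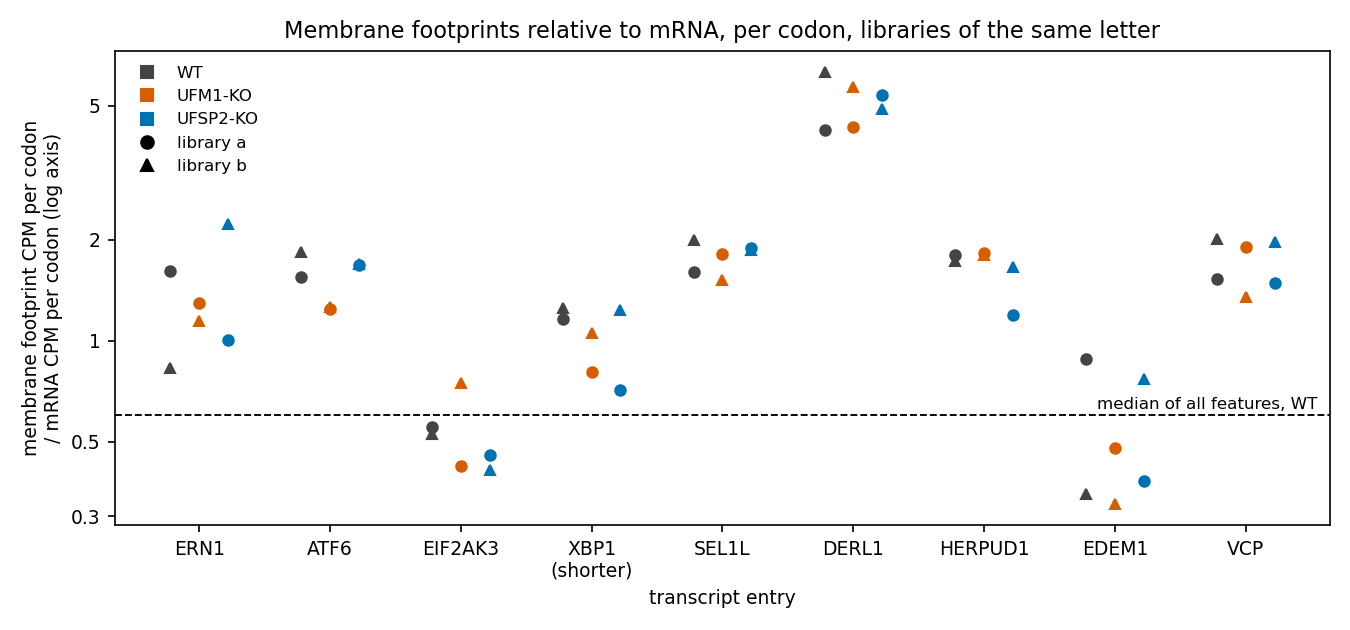
Membrane footprints per codon over mRNA per codon (log axis) for the 9 entries, 1 point for each pair of libraries of the same letter, coloured by line; the letters are used only to give 2 points per line. The dashed line is the WT median of all features, 0.602. DERL1 lies highest in each line, and EIF2AK3 and EDEM1 lie around the dashed line.

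The joint edgeR model tested whether membrane footprints changed by another amount than mRNA. It called 0 of 9 entries in UFM1-KO, where 0% of all features were called, and 0 of 9 in UFSP2-KO, where 0.0792% were. At an unadjusted p under 0.05 there were 0 entries in either knockout, and DESeq2 called 0 in both. The log2 differences ran from -0.47 for ATF6 (SE 0.31) to 0.1 for ERN1 in UFM1-KO, and from -0.39 for HERPUD1 (SE 0.31) to 0.48 for ERN1 (SE 0.55) in UFSP2-KO. For XBP1 they were -0.44 (SE 0.33) and -0.38 (SE 0.33). The standard errors of the 9 entries ran from 0.29 to 0.55, which limits the size of change that could be detected.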

How the data were processed

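Ribosome footprints of 2 fractions and whole-cell mRNA were measured in 3 lines. The deposited values are whole-number counts per transcript entry, made by the authors from reads aligned with TopHat2 2.1.1 to GRCh38, per the submitters' processing notes. The counting program is not given in the sources used here. A further deposited column holds another quantity, the coding length in codons less a fixed trim.

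Entries with identical counts were merged. For mRNA, the 25605 entries shared with the footprint tables plus the 2 members found in mRNA only were used. After filterByExpr (minimum count 10), 11065 footprint, 13891 mRNA and 12619 joint features were tested with edgeR 4.0.16 (TMM, quasi-likelihood test, R 4.3.3), with all lines of an assay in 1 model and Benjamini-Hochberg adjustment. The scripts were tested on simulated data. Depth was 1393032 to 11388755 counts for footprints, so rare cytosolic entries rest on few counts. Intervals are exact and cover counting error only. Every member found is named. The members and lists were chosen with earlier results of these data known. Alternatives were DESeq2 1.42.0, other scalings, no filter, unmerged entries, fewer groups, a replicate block and leaving out each library. Start-site windows came from RefSeq, GRCh38.p14.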

Additional observations from a re-analysis of the deposited data

How the results depend on the processing

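The number of members called stayed within 1.5 times its reported value in 171 of 186 recalculations, and no called log2 change turned its sign. Many changes that were not called lay near 0 and took either sign, such as XBP1 in the UFSP2-KO ratio (9 of 15 alternatives opposite) and SYVN1 in UFM1-KO mRNA (6 of 12). Under DESeq2, calls went from 1 to 0 for membrane footprints of UFM1-KO against UFSP2-KO and from 0 to 3 for UFSP2-KO mRNA against WT. In a model of only the groups compared, UFM1-KO cytosol had 0 in place of 1. With library size only, UFM1-KO against UFSP2-KO mRNA had 0 in place of 1, and the median density over mRNA moved from 1.68 to 1.5 in WT and from 1.25 to 1.16 in UFM1-KO. That scaling moved the median of all features by up to -0.288 on the log2 scale, for UFM1-KO membrane against cytosol. Leaving out 1 library gave 0 to 0 calls for membrane footprints between the knockouts, 0 to 1 for UFM1-KO cytosol, 0 to 1 for mRNA between the knockouts, and a UFM1-KO median density of 1.2 to 1.31. The UFM1-KO less WT difference in XBP1 reads beyond the shorter frame was 4.63 percentage points, or 0.302 as a count per codon relative to the shorter entry. It depended on the WT library: the UFM1-KO mean share was 46.4%, beside 45.6% in WT library a and 38% in WT library b. As a check on the shared letters as a replicate block, the log difference of library a less b was taken per feature in each group. Across features these differences correlated between the groups compared at 0.0625 to 0.331 in footprints. In mRNA the correlations were 0.0597, -0.225 and -0.679. With 2 letters this does not settle whether the letters pair the libraries. The replicate block called 0 in place of 1 for mRNA between the knockouts (EIF2AK3 log2 -0.82, edgeR adjusted p = 0.0517) and 9 in place of 8 in UFSP2-KO membrane against cytosol (VCP 0.43, edgeR adjusted p = 0.0409). With letters crossed, a choice made after seeing the data, 3 mRNA entries were called in UFSP2-KO against WT and 1 between the knockouts. Cytosol depth limits ERN1, EIF2AK3 and SEL1L, whose sums were 0 to 5 counts per line.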
